A study of Capra hircus with 3 samples.

Results

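The deposited expression table of goat muscle holds 160 entries, of 24689 in all, whose product text begins with 40S or 60S ribosomal protein. They were chosen by that text alone: 69 entries are described as proteins of the small (40S) ribosomal subunit and 91 as proteins of the large (60S) subunit. Every one of the 160 texts also holds the ending "-like", while 64 other entries carry the plain wording "ribosomal protein" followed by the protein name. The 160 entries fall under 54 protein names, of which 19 have 1 entry and 12 have at least 5. The names L17 and S15a have the most, with 8 entries each. RNA was sequenced from the longissimus dorsi, the long muscle beside the spine, of goats (Capra hircus) at 3 stages after birth: kid at 2 months, youth at 9 months and adult at 24 months. Each stage has 1 library. Breed, sex, treatment and the number of animals behind a library are not stated in the labels, and the protocol label names mammary tissue although the tissue label names the muscle. Without replicates no comparison below could be tested or checked against the spread between animals, and each one is between libraries and not between ages.

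Ribosomal proteins surround the ribosomal RNA of the small and large subunits, and a cell needs each of them in about equal amounts. Their messenger RNAs are among the most abundant in any tissue. Because these messages are abundant and short, mammalian genomes carry many reverse-transcribed copies of them, most of which are without known function. Automatic annotation often describes such copies, and sometimes the parent gene itself, as "-like". In muscle, ribosome content is one of the determinants of how much protein a fibre can make.

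The values are FPKM, which scale fragments to the length of the gene and to the size of the library. Library totals recovered from the FPKM steps were 15829474 (kid), 14920689 (youth) and 18399385 (adult). In a gene 1 kb long, a single read therefore gave 0.0632, 0.0670 and 0.0543 FPKM, respectively. The intervals given with ratios are exact 95% intervals of the recovered reads and cover counting error only. Recovered reads are the smallest whole numbers that fit the FPKM values. For some entries they may therefore be too few and the interval too wide. Of 7 muscle fibre markers, 4 were matched by symbol, which does not show that the others lack an entry. The summed level of the 4 was 41630, 49400 and 54910 FPKM in kid, youth and adult. All 5 milk protein markers of mammary epithelium were listed at 0 in every library. Summed markers of other cell types ranged from 30.04 to 61.33 FPKM for macrophages, from 3.815 to 6.824 for T cells, from 27.06 to 77.6 for adipocytes (2 of 3 markers matched), from 105.1 to 131.1 for endothelium and from 649.7 to 942.1 for fibroblasts. The summed adipocyte markers were highest in kid, and the summed macrophage and fibroblast markers were highest in youth and lowest in adult. Single markers differed from these sums: CD68 among the macrophage markers, and DCN and PDGFRA among the fibroblast markers, were highest in kid. Among the muscle fibre markers, MYLPF was lowest in youth, and CKM was no higher in adult (18998 FPKM) than in youth (19069 FPKM). The part of these cell types in the results below was not tested. In whole muscle, fewer cells of a type and less RNA per cell cannot be told apart.

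Most of the ribosomal protein-like entries had few reads or none. Of the 160, 73 (45.6%) were listed at 0 in all 3 libraries, against 23.6% of all entries and 38.9% of the 4690 other entries described as "-like". A further 22 (13.8%) were above 0 in 1 library, 14 (8.8%) in 2 and 51 (31.9%) in all 3. Over all entries these shares were 6.7%, 4.7% and 65.0%, and over the other "-like" entries 8.6%, 5.5% and 47.0%. Among the 22, 11 were above 0 in kid, 6 in youth and 5 in adult, and none exceeded 0.334 FPKM. That split by library was not counted over all entries, so nothing is read from it. For 14 protein names every "-like" entry was at 0 throughout: RPL10L, one worded L7-like 1, L18a, L22, L29, L31, L37, L38, S7, S10, S14, S20, S28 and S29. In total, 24 of the 160 (15.0%) averaged at least 1 FPKM, compared with 31.9% of the other "-like" entries and 49.1% of all entries. The 63 entries above 0 but under that mean had at most 16 reads in any library among the 41 whose reads could be resolved. By contrast, all 64 plain-named entries passed, with means from 27.28 to 1213 FPKM and a median of 470.2.

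Together the 160 entries added up to 3618, 2928 and 2689 FPKM in kid, youth and adult. These sums were 0.686%, 0.562% and 0.494% of all FPKM in the 3 libraries. The plain-named entries summed to 37375, 32542 and 30078 FPKM. Both sums were highest in kid and lowest in adult, with a kid to adult ratio of 1.35 for the "-like" entries and 1.24 for the plain-named ones. The 8 most abundant "-like" entries held 90.6%, 90.0% and 89.0% of the "-like" sum.

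The wording "-like" also covered entries that carry the symbol of an established ribosomal protein gene. By gene number, 142 of the 160 entries matched a RefSeq gene table (ARS1.2 assembly), in which 7 carry a symbol other than a LOC name, among them RPS24, RPS4X, RPL10, RPL36AL, RPL10L and RPL22L1. Of these, RPS24 and RPS4X were among the 5 most abundant members. In the deposited gene ontology column, 128 of the 160 entries hold the term for a structural constituent of the ribosome, including 62 of the 73 at 0, and 16 of the 24 with a mean of at least 1 FPKM. How the authors placed reads that match several near-identical copies is not stated in the labels, so the split of reads between entries of one name is uncertain throughout.

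Among the small-subunit entries, S15-like entry 102191702 had the highest mean, at 744, 607 and 606 FPKM in kid, youth and adult. S15 lies in the head of the small subunit, close to the decoding site. The plain-named RPS15 entry stood at 27.8, 26.9 and 27.2 FPKM, so the "-like" entry carried 96.4%, 95.7% and 95.7% of the pair's sum. S25-like entry 102172558, for a small-subunit protein known to be needed for translation from internal entry sites of viral messages, stood at 843, 582 and 483 FPKM. It was highest in kid, and the kid to adult ratio was 1.74 (interval 1.68 to 1.81). No entry has the plain text for S25, and the entry to which the reference table gives the symbol RPS25 is described in the deposited table as a trafficking protein and stood at 16.9, 13.7 and 16.3 FPKM. Both of these "-like" entries were highest in kid.

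The next most abundant entries with symbols of their own showed the same order. RPS24 (entry 102171217), a small-subunit protein whose gene is mutated in some human Diamond-Blackfan anaemia, stood at 465, 382 and 333 FPKM. RPS4X (entry 102185447), the X-linked S4 gene, stood at 268, 208 and 172 FPKM. RPL36AL (entry 102182132), an expressed second gene for the large-subunit protein L36a, stood at 179, 147 and 141 FPKM. Each of these was highest in kid, intermediate in youth and lowest in adult, an order held by 14 of the 24 entries (58.3%), 49 of the 64 plain-named ones (76.6%) and 27.1% of all 12121 entries with a mean of at least 1 FPKM. After median of ratios scaling these shares were 45.8%, 59.4% and 16.8%. The order counts differences of any size. For RPL36AL the youth to adult ratio was 1.04, with an interval (0.961 to 1.12) that included 1.

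**Figure D1:**
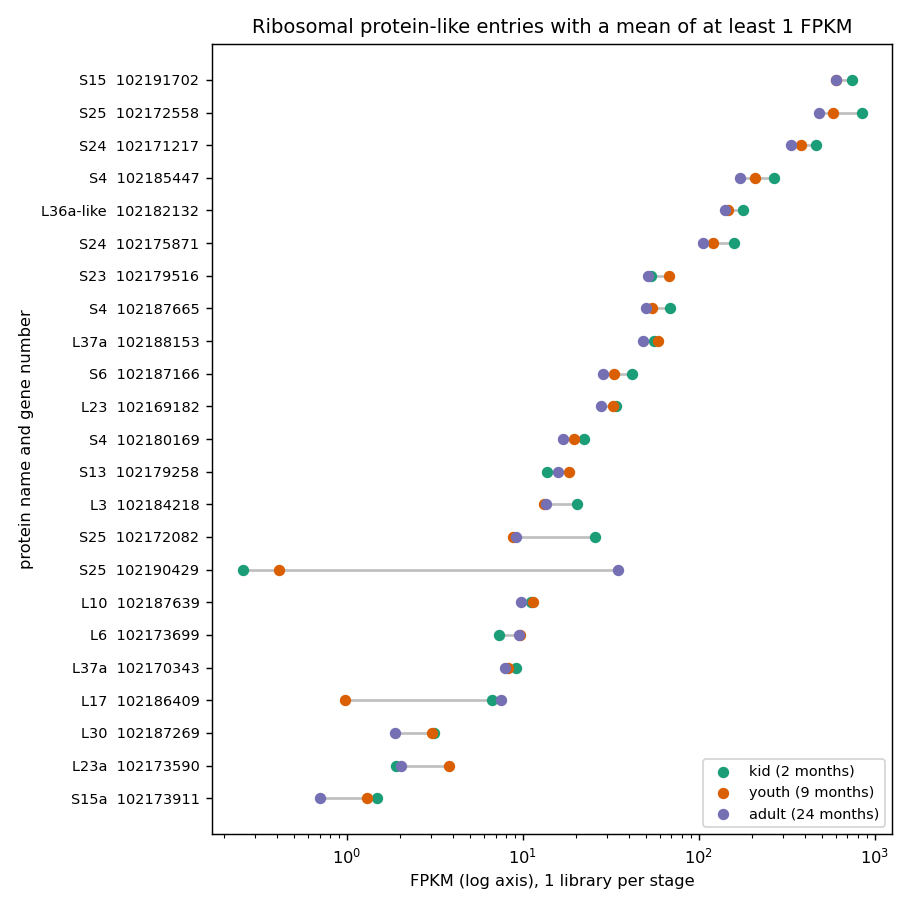
FPKM (log axis) of the ribosomal protein-like entries that average at least 1 FPKM (1 of the 24 is not drawn), with 1 point per library (kid, youth and adult) and 1 row per entry, ordered by mean. The rows of the abundant entries span a narrow range with kid on the right, whereas the S25 entry 102190429 runs from 0.257 to 34.7 FPKM and the L17 entry 102186409 from 0.979 to 7.50 FPKM.

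Lower in abundance, single entries did not all follow that order. S23-like entry 102179516, for the decoding-centre protein that helps set the accuracy of translation, stood at 53.4, 68.2 and 51.6 FPKM and was highest in youth. S13-like entry 102179258 stood at 13.8, 18.4 and 15.9 FPKM, and the youth to kid ratio was 1.33 (1.03 to 1.73). L6-like entry 102173699 stood at 7.34, 9.69 and 9.53 FPKM, lowest in kid. S6-like entry 102187166, for the protein phosphorylated by S6 kinase downstream of mTOR, stood at 41.7, 33.2 and 28.7 FPKM, in the common order. L23-like entry 102169182, for a protein of the face between the subunits, stood at 33.8, 32.6 and 27.7 FPKM. L3-like entry 102184218, for a protein that reaches towards the peptidyl transferase centre, stood at 20.4, 13.2 and 13.5 FPKM, higher in kid than in youth by 1.55 times (1.29 to 1.85). The entry with the symbol RPL10, a protein added late as the large subunit matures, stood at 11.1, 11.5 and 9.75 FPKM, while an entry with the plain text for L10 and a LOC name stood at 647, 589 and 549.

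Between youth and kid, the 2 entries that differed by at least 2-fold were both lower in youth. A difference was counted as 2-fold where log2(FPKM + 1) differed by at least 1, among entries with a mean of at least 1 FPKM. S25-like entry 102172082 stood at 25.8 FPKM in kid and 8.74 in youth (229 and 73 reads), and kid was higher by 2.96 times (2.26 to 3.90). L17-like entry 102186409 stood at 6.67 and 0.979 FPKM (65 and 9 reads), and kid was higher by 6.81 times (3.37 to 15.6). Of all 12121 entries with such a mean, 1.05% were 2-fold apart in this comparison (0.421% higher and 0.627% lower in youth), as were 1.67% of the other "-like" entries. Of the 24 members, 7 were higher and 17 lower in youth by any amount, with a median of -0.15 on the log2 scale, against -0.08 over all entries. The interval of the ratio lay wholly above 1 for 4 members and below 1 for 12, where 11.6% and 26.9% of all entries did so. The plain-named entries had a median of -0.22, and the interval lay below 1 for 56 of 64.

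Between adult and youth, 2 entries were at least 2-fold higher in adult and none was 2-fold lower. They were S25-like entry 102190429, at 0.409 FPKM in youth and 34.7 in adult, and the L17-like entry 102186409, at 0.979 and 7.50 FPKM. The S25-like entry reached the mean of 1 FPKM through the adult library alone. It therefore had to be higher in adult in each count of this paragraph. The share of all entries 2-fold apart was 2.08% (1.01% higher, 1.07% lower), and of the other "-like" entries 2.94%. Of the 24 members, 4 were higher and 20 lower in adult, with a median of -0.20, against -0.02 over all entries and -0.10 over the plain-named ones. The interval lay above 1 for 2 members and below 1 for 9, beside 22.3% and 27% of all entries.

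Between adult and kid, S25-like entry 102190429 was at least 2-fold higher in adult and S25-like entry 102172082 at least 2-fold lower. Among all entries 1.76% were 2-fold apart (0.536% higher, 1.22% lower), and among the other "-like" entries 1.87%. Of the members, 5 were higher in adult, among them entry 102190429, which reached the mean of 1 FPKM through that library alone, and 19 were lower, with a median of -0.32, against -0.10 over all entries and -0.30 over the plain-named ones. The interval lay above 1 for 2 members and below 1 for 14, beside 16.7% and 34.6% of all entries. The 3 comparisons share libraries, so they are not independent of each other. Scaling by the median of ratios raised the log2 ratios by 0.10 (youth against kid), 0.04 (adult against youth) and 0.14 (adult against kid). After it 9, 6 and 6 members were higher and 15, 18 and 18 lower, and the interval lay above and below 1 for 4 and 11, 2 and 6, and 2 and 11 members in the 3 comparisons.

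Among the 4 names with at least 2 entries past 1 FPKM, S25 held the widest swing of a single entry. Its entries moved against each other in adult, where entry 102190429 was higher than in youth and entry 102172558 lower. The former passed the minimum through the adult library alone. S25 has 6 entries, of which 3 were at 0 throughout. Entry 102172558 carried 97.0%, 98.5% and 91.7% of the S25 sum in kid, youth and adult. Entry 102172082 stood at 25.8, 8.74 and 9.12 FPKM, high in kid and low in both later libraries, and kid exceeded adult by 2.83 times (2.22 to 3.64). Entry 102190429 stood at 0.257, 0.409 and 34.7 FPKM, from 2, 3 and 314 reads, near the floor of 3 reads in kid and youth and well above it in adult. The adult to youth ratio was 84.9 (28.8 to 414) and the adult to kid ratio 135 (37.1 to 1120). An entry that passes the minimum in this way had to differ once it was counted. In the adult library it made up 6.58% of the S25 sum, against 0.030% in kid and 0.069% in youth.

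Added together, the S25 entries stood at 869, 591 and 527 FPKM. The sum was highest in kid and lowest in adult, and its log2 differences were -0.56 (youth minus kid) and -0.16 (adult minus youth). Kid exceeded youth by 1.47 times (1.42 to 1.53) and youth exceeded adult by 1.12 times (1.08 to 1.17). From youth to adult the entries' differences, added without sign, came to 2.09 times the difference of the sum, since entry 102190429 was higher and entry 102172558 lower. From kid to youth, entries 102172558 and 102172082 were both lower. In the reference table, entry 102172558 lies within or across CNGB1, which was listed at 0 in all 3 libraries, and entry 102190429 lies beside ADARB2, at 0, 0.0515 and 0.0209 FPKM.

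**Figure D2:**
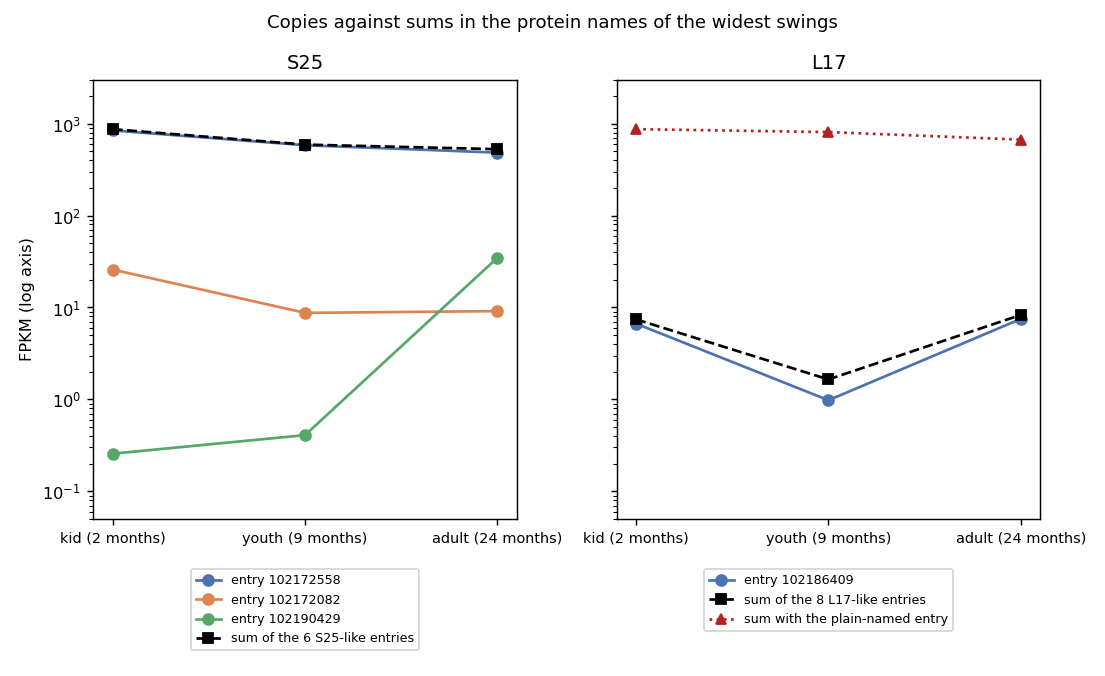
FPKM (log axis) of the entries with a mean of at least 1 FPKM for S25 and L17 in the 3 libraries, with the sum of all "-like" entries of the name as a dashed line and, for L17, the sum with the plain-named entry as a dotted line. The S25 sum runs from 869 to 527 FPKM while entry 102190429 reaches 34.7 in adult, and the L17 sum of 1.65 FPKM in youth lies below a line of 870, 808 and 670 FPKM.

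L17, a large-subunit protein near the mouth of the exit tunnel, was the other name of wide swings. Its 8 entries summed to 7.42, 1.65 and 8.29 FPKM, low in youth. It was the single name among 22 with a mean sum of at least 1 FPKM whose sum was 2-fold apart, lower in youth than in kid and higher in adult than in youth. Here the sum did not smooth the swing, since entry 102186409, at 6.67, 0.979 and 7.50 FPKM, held most of it. That entry had 65, 9 and 85 reads, and adult exceeded youth by 7.66 times (3.85 to 17.3) and kid by 1.12 times (0.805 to 1.58). The plain-named L17 entry stood at 863, 807 and 661 FPKM, so all "-like" entries together were 0.85%, 0.20% and 1.24% of the L17 total. With the plain-named entry added, the log2 differences of the L17 total were -0.11 (youth minus kid) and -0.27 (adult minus youth). In the reference table entry 102186409 overlaps SEL1L2, listed at 0 in every library, and NDUFAF5, its neighbour on one side, stood at 13.5, 11.1 and 16.7 FPKM, lowest in youth as well. Whether reads of that neighbour reach the entry was not tested.

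S24, S4 and L37a were the other names with at least 2 entries past 1 FPKM, and in all of them the shares of the sum differed little between libraries. RPS24 held 74.4%, 76.0% and 76.0% of its name's sum and S24-like entry 102175871 held 25.5%, 23.9% and 24.0%. That second entry stood at 160, 120 and 105 FPKM, and the sum of all 6 at 625, 502 and 438. For S4, RPS4X held 74.7%, 73.8% and 71.8% of the sum, entry 102187665 held 19.0%, 19.3% and 21.0%, and entry 102180169 held 6.19%, 6.95% and 7.04%. The 2 smaller ones stood at 68.2, 54.3 and 50.4 FPKM and at 22.2, 19.6 and 16.9 FPKM. The S4 sum of 358, 282 and 240 FPKM was in the same order, with a kid to youth ratio of 1.27 (1.22 to 1.32) and a youth to adult ratio of 1.18 (1.13 to 1.23). Transcription of each copy and a division of one gene's reads between copies cannot be told apart here.

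L37a, a zinc-binding protein of the large subunit, had a main entry, 102188153, with 85.8%, 87.7% and 85.9% of the sum. It stood at 55.4, 58.8 and 48.0 FPKM and entry 102170343 at 9.15, 8.24 and 7.87. From kid to youth neither differed beyond counting error, with youth to kid ratios of 1.06 (0.931 to 1.21) and 0.901 (0.592 to 1.37). The sum stood at 64.5, 67.0 and 55.8 FPKM, and its youth to kid ratio of 1.04 had an interval (0.922 to 1.18) that included 1. The plain-named L37a entry stood at 410, 349 and 328 FPKM.

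**Figure D3:**
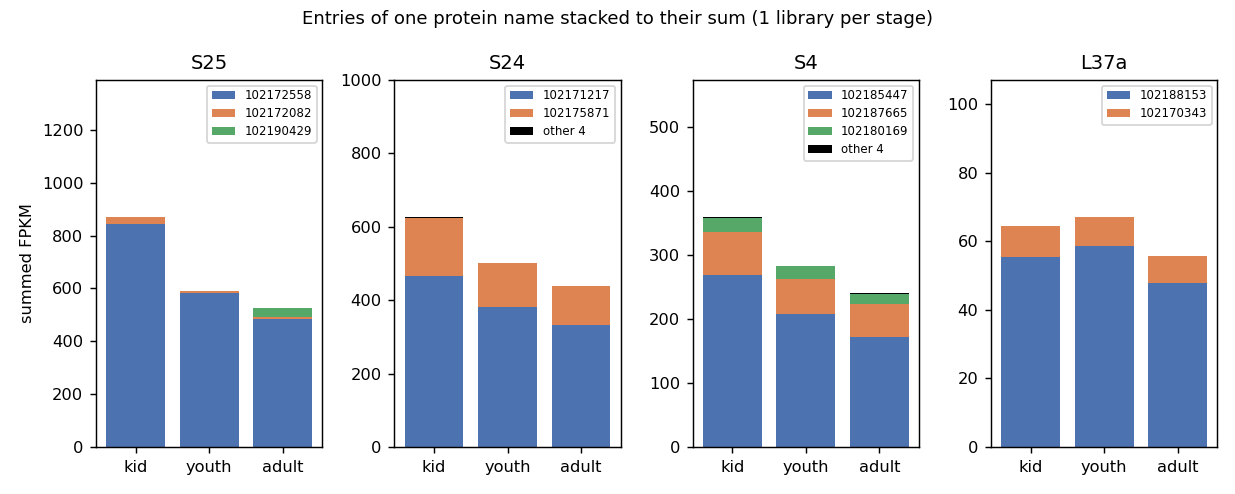
Summed FPKM of the "-like" entries of S25, S24, S4 and L37a in kid, youth and adult, with each entry averaging at least 1 FPKM as a coloured part of the bar and the remaining entries in black. The bars of S25, S24 and S4 shorten from kid to adult, from 869 to 527, 625 to 438 and 358 to 240 FPKM, with similar shares across libraries in S24 and S4 and a part of 34.7 FPKM for entry 102190429 in the adult bar of S25.

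Several sums rested on few reads. L5, which binds a ribosomal RNA on its way into the large subunit, had 3 "-like" entries that summed to 0.72, 1.87 and 1.44 FPKM, and the youth to kid ratio of reads was 2.33 (1.06 to 5.52). L23a-like entry 102173590, for a protein at the exit tunnel, stood at 1.91, 3.81 and 2.03 FPKM from 17, 32 and 21 reads. Youth exceeded kid by 2.00 times (1.08 to 3.83) and adult by 1.88 times (1.05 to 3.43). The 6 L23a entries summed to 2.90, 4.34 and 2.88 FPKM. The youth to kid ratio of their resolved reads was 1.59, with an interval (0.924 to 2.79) that included 1. L30-like entry 102187269 stood at 3.14, 3.04 and 1.88 FPKM and S15a-like entry 102173911 at 1.49, 1.29 and 0.698, lowest in adult, from 16 and 6 reads there. The S27 sum stood at 0.72, 1.54 and 0.93 FPKM, and the youth to kid ratio of its resolved reads was 1.86 (0.472 to 8.65).

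The swing of an entry, its highest minus its lowest log2(FPKM + 1) over the libraries, had a median of 0.45 over the 24 entries and 0.42 over the 22 sums. Only 4 names had 2 or more entries with a mean of at least 1 FPKM, so most sums rested largely on a single entry. The sums of L5, L9, L21 and S27 held no entry past that mean. These 2 medians therefore say little about copies against sums. The median was 0.31 over the 64 plain-named entries, 0.34 over the other "-like" entries and 0.33 over all 12121. The largest swing of a single entry was 4.83, for S25-like 102190429, a value tied to its passing the minimum through 1 library. The next was 2.10 for L17-like 102186409, beside 1.81 for the L17 sum, the largest of the sums, and 0.81 for the widest plain-named entry. Of the 22 sums, 1 was 2-fold apart in youth against kid, 1 in adult against youth and 0 in adult against kid. A plain-named entry could be added for 42 of the 54 names, and none of the 48 sums then past the minimum was 2-fold apart in any of the 3 comparisons. For most names this could hardly come out otherwise. The plain-named entry there far exceeded the "-like" sum, and no plain-named entry swung by more than 0.81.

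**Figure D4:**
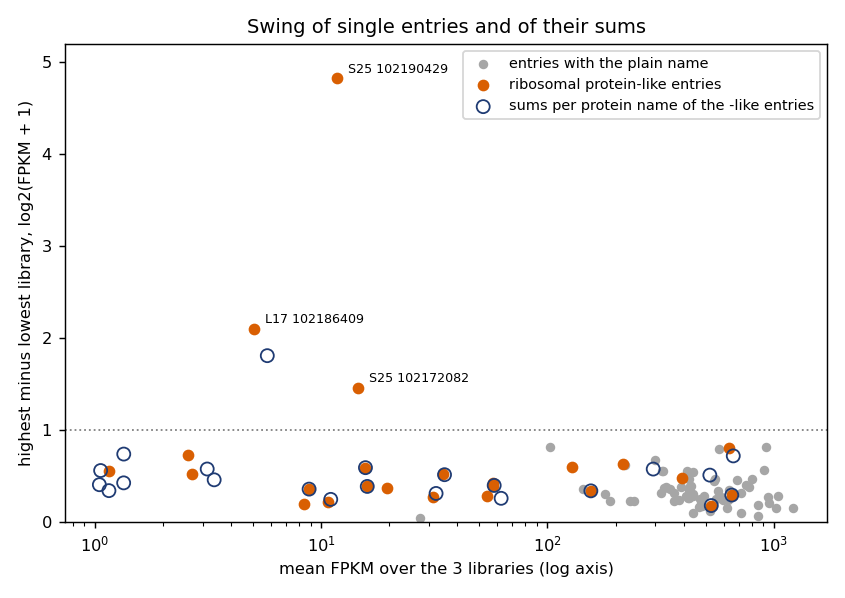
Swing between libraries (highest minus lowest log2(FPKM + 1)) against the mean FPKM on a log axis, for ribosomal protein-like entries (filled), their sums per protein name (open circles) and plain-named entries (grey). The named entries above the dotted line at 1 are 2 of S25 and 1 of L17, and the plain-named entries, at means of 27.28 to 1213 FPKM, lie at or under 0.81.

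For 13 of the 24 entries the table also holds a plain-named entry of the same protein, which gives each a counterpart in the same libraries. From kid to youth 5 of the 13 "-like" entries were higher and 8 lower, while all 13 counterparts were lower. From youth to adult 2 were higher and 11 lower, with 1 counterpart higher and 12 lower. From kid to adult 4 were higher and 9 lower, with all 13 counterparts lower. After median of ratios scaling the "-like" entries were higher and lower in 7 and 6, 4 and 9, and 4 and 9 of the pairs for the 3 comparisons, and the counterparts in 3 and 10, 1 and 12, and 1 and 12. S13-like entry 102179258 was one of those in the opposite direction: it stood at 13.8 FPKM in kid and 15.9 in adult, a ratio of 1.15 whose interval (0.892 to 1.49) included 1, while RPS13 stood at 165, 136 and 128 FPKM in kid, youth and adult. For L6 the entry stood at 7.34 and 9.53 FPKM in kid and adult, with an adult to kid ratio of 1.30 whose interval began just above 1, while RPL6 stood at 514, 465 and 450. The intervals of the other copies higher in adult than in kid, L17 (0.805 to 1.58) and L23a (0.534 to 2.15), also included 1. S6-like entry 102187166 had the same order as RPS6, which stood at 397, 353 and 338 FPKM, and made up 10.5%, 9.40% and 8.48% of its level. The 2 L37a entries share 1 counterpart. Some counterpart intervals also included 1: those of RPS15 in all 3 comparisons, RPL23A in youth against kid, and RPL6 and RPS13 in adult against youth. RPS15 was the counterpart higher in adult than in youth, with a ratio of 1.01 (0.693 to 1.48). In the S15 pair the "-like" entry, and not the plain-named one, carried most of the sum. Entries that carry a protein's symbol in the reference table but not its plain text were not counted as counterparts. The entry with the symbol RPS23 stood at 87.2, 97.6 and 81.2 FPKM in kid, youth and adult. Its youth to kid ratio was 1.12 (1.04 to 1.21), the same direction as S23-like entry 102179516. The entry with the symbol RPS25 was lower in youth than in kid.

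**Figure D5:**
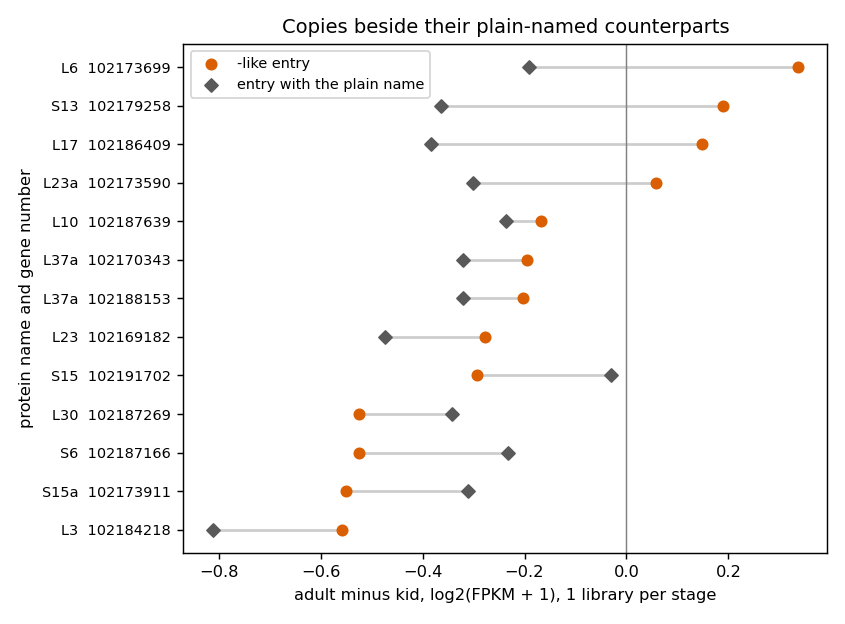
Difference between adult and kid, as log2(FPKM + 1), for each of 13 ribosomal protein-like entries (circles) and the plain-named entry of the same protein (diamonds), joined by a line. All 13 diamonds lie left of 0, 1 of which passes to the right after median of ratios scaling, while 4 circles lie right of 0.

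Genes of the ribosomal protein family with their own paralog symbols were spread over the wording. RPL36AL is described above. RPL10L, an autosomal counterpart of the X-linked RPL10 that acts in the testis of mouse and human, and RPL22L1, a counterpart of RPL22, were at 0 in all 3 libraries. Entries that share the wording L22-like 1 with RPL22L1 were not all at 0. The 5 entries of that name summed to 0.828, 0 and 0.379 FPKM in kid, youth and adult. RPL3L, the L3 protein of striated muscle, is worded "ribosomal protein L3-like" without the 60S prefix, so it is neither a member nor one of the 64 plain-named entries. It stood at 205, 169 and 192 FPKM, above RPL3 at 132, 100 and 74.9 and above the L3-like entry in every library. RPL7L1 (24.7, 25.2 and 22.2 FPKM), RPS27L (114, 89.9 and 88.9) and RPL26L1 (30.7, 28.6 and 26.8) are also outside the 160.

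Other genes of translation and of ribosome assembly are given for comparison. Of 35 translation genes listed (acidic stalk proteins, initiation and elongation factors and others), 33 were matched, to 34 entries with a mean of at least 1 FPKM. Their median log2 differences were -0.07 (youth minus kid), -0.06 (adult minus youth) and -0.12 (adult minus kid), with 11, 14 and 9 higher and 23, 20 and 25 lower by any amount. Of 25 genes of ribosome biogenesis 24 were matched, with medians of -0.02, -0.02 and -0.04, beside -0.08, -0.02 and -0.10 over all entries. In these lists 0 entries were 2-fold apart, which for so few entries is near the 1.05%, 2.08% and 1.76% of all entries.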

How the data were processed

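The authors deposited FPKM values, 1 column for each stage, in a single table. Per the submitters' processing notes, the tools include FastQC, TopHat2 and DESeq, with no version or role stated. The sources used here do not give the build, the annotation, the counting or the placing of multiply matching reads. Whole reads and gene lengths were recovered from the steps between FPKM values: whole reads came out for each of the 16054 entries detected in 3 libraries and the 1157 detected in 2, within 5e-06 of a read plus a relative rounding allowance of 6e-10, while the 1655 detected in 1 library were not resolved. The procedure was tested on simulated reads. The floor used was 3 reads.

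Differences used log2(FPKM + 1), which understates those of low entries, among entries or sums with a mean of at least 1 FPKM. An entry's protein name is the word after 40S or 60S ribosomal protein, and paralogs with their own symbol were kept apart, except RPL22L1. The name L22-like 1 holds 5 entries of that wording, RPL22L1 among them. Ratio intervals are exact conditional binomial intervals of reads, and no test was possible with 1 library per stage. For sums they rest on reads pooled over the entries, without those detected in 1 library. The ratio of pooled reads can therefore differ from the ratio of summed FPKM. Named were the 5 highest and 5 lowest entries and the 3 highest and 3 lowest sums per comparison, the 5 most abundant entries, sums 2-fold apart, names with the most expressed entries or the largest opposing movement, and paralogs. L10, S6, L23 and the counterparts were named after their values were seen. For 1 member named by this rule, the values are not reported here. The members and gene lists were chosen with earlier results of these data known. The ARS1.2 table served for names and neighbours only. Other pseudocounts, minimum levels, scaling and ways of summing were tried. Python 3.11.15, numpy 2.4.6, pandas 2.3.3, SciPy 1.17.1 and matplotlib 3.10.9 were used.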

Additional observations from a re-analysis of the deposited data

How the results depend on the processing

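No paired analysis was possible because each stage has 1 library and the labels give no replicate numbers, and no library could be left out. With a pseudocount of 5 FPKM, 1 entry was 2-fold apart in youth against kid in place of 2, and 0 sums were 2-fold apart in youth against kid or in adult against youth in place of 1 each. With a pseudocount of 0.1 FPKM, 2 sums were 2-fold apart in youth against kid. With the whole product text as the name, which sets S25-like entry 102172082 apart from the other S25 entries, 2 sums were 2-fold apart in youth against kid and 1 in adult against kid. Adding the plain-named entry where a name had one was an alternative chosen after seeing the data. It gave 48 sums, of which 0 were 2-fold apart in youth against kid and 0 in adult against youth. The far larger plain-named entries left little room for another outcome. With no minimum, the median swing of single entries was 0.30 over 87 entries, in place of 0.45 over 24. The other counts of 2-fold entries and sums, and the other median swings, stayed within the limits set for them under these settings, a minimum of 5 FPKM, median of ratios scaling and summed reads. Of 123 differences of named entries and sums, 25 moved by more than the margin of their counting interval under median of ratios scaling, and 10 changed sign under it, each of which was at most 0.09 in size on the log2 scale as reported. Among those 10 were S23 (adult against kid), L6 and S15 (adult against youth) and L30-like entry 102187269 (youth against kid). None of them was a 2-fold difference, and no sign changed under the other pseudocounts. Depth limits the low entries, so no direction was read from them singly. Of the 63 above 0 but under a mean of 1 FPKM, the 41 with resolved reads had a median of 7 reads over the 3 libraries. The low entries do enter the sums, and the sums of L5, L9, L21 and S27 hold no other entries. Variation between animals of one age is not measured here.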
